A study of Solanum lycopersicum with 8 samples.

Results

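Leaves of tomato (Solanum lycopersicum) given tunicamycin were compared between 6 h and 2 h of treatment. Tunicamycin is an antibiotic that blocks the first step of N-linked protein glycosylation, so that unglycosylated proteins accumulate in the endoplasmic reticulum (ER). The comparison used 4 of the 8 libraries of the series, chosen by their labels as tunicamycin leaf at 6 h (2 libraries) and at 2 h (2 libraries). The other 4 libraries came from control leaf at 2 h and at 6 h, 2 at each time, and their levels or their change is given beside the genes because harvest time and treatment length changed together. Cultivar, plant age, the tunicamycin dose, what the control leaves received and the hour of harvest are not stated in the labels. The labels call the 2 libraries of each group biological replicates, without saying which plants they came from. All values are from total RNA of whole leaf, so fewer cells of a type and less RNA per cell cannot be told apart. The count table held 29081 genes, each represented by its transcript with the highest total count, and 20272 of them passed a filter on low counts.

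Plant cells answer unfolded proteins in the ER through membrane sensors, among them IRE1 and the bZIP factors, which raise chaperones such as BiP, protein disulfide isomerases and components of ER-associated degradation. Separately, leaf transcripts follow the circadian clock. In Arabidopsis, MYB-like factors such as LHY and the REVEILLE proteins peak around dawn, and GIGANTEA, the adagio (FKF1) photoreceptor and APRR1 peak later in the day. Cytosolic heat shock proteins form a further system, in which small heat shock proteins hold unfolded proteins and HSP70, HSP90 and ClpB refold them.

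Library totals ran from 4689769 to 122784850 counts. In each group the deeper library held 5.49 to 9.98 times the counts of the shallower, and it was replicate 1 in both tunicamycin groups and replicate 2 in both control groups. The share of counts on ribosomal RNA was 0.115% to 0.677%, except for 2.56% in tunicamycin 6 h replicate 2. Levels below are CPM, read counts scaled to a common library size by TMM, and changes are log2 fold changes, 6 h over 2 h, with their standard errors (SE). Mesophyll markers were abundant, as the leaf label has it, with summed levels of 21770 to 46410 CPM over 22 chlorophyll-binding and Rubisco genes, whereas 9 root markers summed to 3.11 to 5.09 CPM. Not every list of other tissues was near the floor. The 24 genes matched as pollen markers by their descriptions summed to 377.9 to 709.5 CPM. Of these, pollen-specific protein C13 (LOC101266327) alone had 201.4 to 437.7 CPM.

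In tunicamycin leaves most of the called change from 2 h to 6 h was downward. By edgeR with all 8 libraries, 136 genes fell and 19 rose (155 of the 20272 tested, 0.765%, with 0.671% lower and 0.0937% higher), and 2429 genes had an unadjusted p under 0.05. The genes that fell were led by dawn clock factors and cytosolic heat shock proteins. The genes that rose included an aspartyl protease, a cysteine proteinase, an elongation factor and several transcription factor genes. In control leaves the same interval gave 61 lower genes (0.301%) and 1 higher gene (0.00493%), the clock gene GIGANTEA. Of the 136 genes lower in tunicamycin leaves, 48 were also called lower in control leaves (35.3% of the former and 78.7% of the latter), and 135 had a control change of the same sign. Their median log2 change was -2.80 in tunicamycin leaves and -1.99 in control leaves. None of the 19 higher genes was called in control leaves, although 17 had the same sign there, and their median was 2.50 in tunicamycin against 0.68 in control leaves.

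The difference between the arms was itself tested for every gene, and no gene passed by edgeR, DESeq2 or limma-voom (edgeR: 580 genes at an unadjusted p under 0.05). The count of 155 became 39 without replicate 1 of tunicamycin 2 h, 96 (54 lower and 42 higher) and 73 without replicate 1 and replicate 2 of tunicamycin 6 h, and 80 without control 2 h replicate 2, and it was 458 and 383 without control 6 h replicate 1 and replicate 2. By DESeq2 the count was 635, with 466 lower and 169 higher. The control count of 62 was 11 and 34 without control 2 h replicate 1 and replicate 2, and 185 and 41 without control 6 h replicate 1 and replicate 2. Only 22 of the 155 calls passed whichever 1 of the 8 libraries was dropped. All 22 were genes that fell, and they included 5 of the morning clock list, 6 small heat shock proteins and 3 HSP70 genes.

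**Figure D1:**
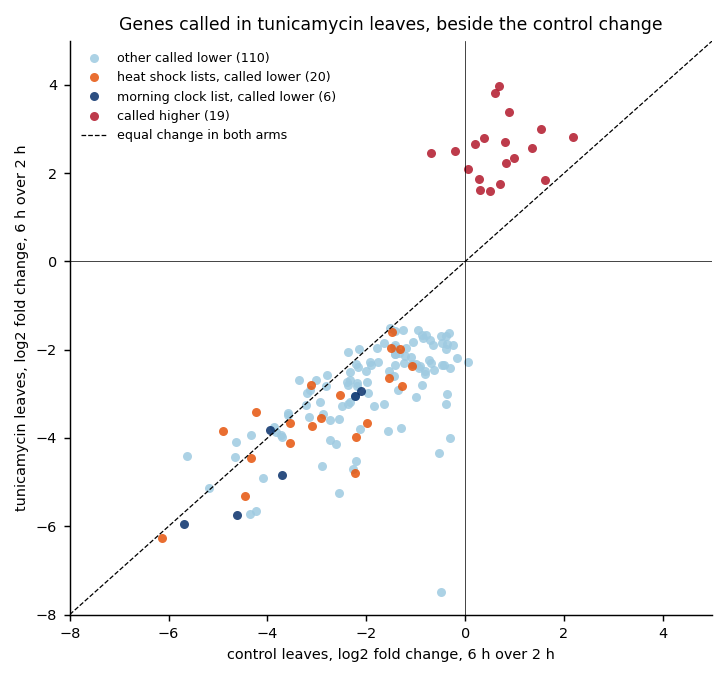
Each point is 1 of the 155 genes called in tunicamycin leaves, with its log2 fold change from 2 h to 6 h in control leaves on the horizontal axis and in tunicamycin leaves on the vertical axis. The 136 genes that fell spread along and below the dashed line of equal change, with some above it, where control leaves fell more. The 19 that rose lie above the line, with control values between -0.68 and 2.17.

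The morning clock list held the largest share of called genes: 6 of its 11 measured genes fell, and 5 of the 11 fell in control leaves, or 3 without either control 2 h library. Of all genes, 0.671% were called lower in tunicamycin leaves and 0.301% in control leaves. REVEILLE 7 (LOC101255972) is a MYB-like factor that in Arabidopsis links the clock to growth. It stood at 45.6 and 60.5 CPM in the 2 h tunicamycin libraries and at 1.08 and 0.819 CPM in the 6 h libraries. Its control levels were 30.5 and 17.38 CPM at 2 h and 0.906 and 0.995 CPM at 6 h. In both arms every 6 h library lay far under every 2 h library. The log2 change was -5.75 ± 0.43 (adjusted p = 4.57e-05) in tunicamycin leaves and -4.62 ± 0.41 (adjusted p = 0.000158) in control leaves, a difference of -1.13 ± 0.52 (unadjusted p = 0.0477, adjusted p = 1).

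REVEILLE 8 (LOC101253545), which in Arabidopsis activates evening genes, went from 19 and 24 CPM to 0.431 and 0.137 CPM in tunicamycin leaves. Control levels went from 9.36 and 11.5 CPM to 0 and 0.284 CPM. The groups again did not overlap in either arm, and the changes were -5.96 ± 0.69 (adjusted p = 0.000888) and -5.68 ± 0.69 (adjusted p = 0.0021). REVEILLE 1 (LOC101261079), which promotes auxin synthesis in Arabidopsis, went from 28.9 and 34.1 CPM to 1.36 and 0.683 CPM, a change of -4.84 ± 0.54 (adjusted p = 0.000624), and its control levels went from 23.2 and 7.9 CPM to 1.11 and 1.18 CPM (-3.71, adjusted p = 0.00548). The control call ended without control 2 h replicate 1 or control 6 h replicate 2 (highest adjusted p = 0.0584). LHY (LOC101261662), the core dawn repressor, went from 10.6 and 14.2 CPM to 0.862 and 0.888 CPM (-3.81, adjusted p = 0.00392), and in control leaves from 12 and 13.4 CPM to 1.36 and 0.442 CPM (-3.95, adjusted p = 0.00548). The transcriptional coactivator LNK1 (LOC101244909) changed by -3.06 (adjusted p = 0.00148; control -2.23, adjusted p = 0.0161) and the pseudo-response regulator APRR9 (LOC101262866) by -2.93 (adjusted p = 0.0175; control -2.11, adjusted p = 0.183). Dropping tunicamycin 2 h replicate 1 or 6 h replicate 1 ended the APRR9 call (adjusted p = 0.19 and 0.123), while the other 5 calls held whichever library was dropped. The 5 members that did not pass were LNK1-like (LOC101266410, -3.22, control -1.48), REVEILLE 6 (LOC101259846, -0.06, control -0.27), PRR73 (LOC101249224, 0.69, control 0.55) and a pair of PRR37 genes (LOC101254785, 0.85, control 0.70, and LOC101258043, -0.78, control -0.90).

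Evening clock genes gave 1 call among 17 measured, beside 0.0937% of all genes called higher. Adagio protein 3 (LOC101256908), a blue light receptor of the FKF1 type that times flowering in Arabidopsis, stood at 18.7 and 28.3 CPM at 2 h and at 69.97 and 98.3 CPM at 6 h in tunicamycin leaves. The control levels were 26.6 and 17.45 CPM at 2 h and 66 and 66.8 CPM at 6 h. Both arms were higher at 6 h without overlap, and the change was called in tunicamycin leaves (1.85 ± 0.36, adjusted p = 0.0303) but missed the threshold in control leaves (1.61, adjusted p = 0.117). The difference between arms was 0.24 ± 0.49 (unadjusted p = 0.628). The tunicamycin call ended without 5 of the 8 libraries, both control 2 h, both tunicamycin 2 h and tunicamycin 6 h replicate 2 (highest adjusted p = 0.27). GIGANTEA (LOC101255788) had 27 and 34.9 CPM at 2 h and 116 and 118 CPM at 6 h in tunicamycin leaves, a change of 1.93 ± 0.43 that missed the threshold (adjusted p = 0.0685). It was the gene called higher in control leaves (2.36, adjusted p = 0.0373), a call that 5 libraries decided: both control 2 h, both tunicamycin 2 h and control 6 h replicate 2 (highest adjusted p without 1 of them = 0.804). With all 8 libraries in edgeR, no gene passed the test of the difference between arms, GIGANTEA included. APRR1 (LOC101259425), the evening repressor also called TOC1, had a change of 0.77 (adjusted p = 0.433; control 0.86). The list median was -0.04 in tunicamycin and 0.36 in control leaves.

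Some called genes outside the lists are known to act with the clock or with light, and were picked out after their values were seen. Cyclic dof factor 1 (LOC101262001), whose Arabidopsis relatives repress flowering and are removed by adagio and GIGANTEA, went from 148 and 166 CPM to 18 and 29.6 CPM in tunicamycin leaves (-2.72 ± 0.36, adjusted p = 0.00191). Control levels went from 71.4 and 62.6 CPM to 12 and 13.5 CPM (-2.39, adjusted p = 0.00773). Cyclic dof factor 2 (LOC101243956) and Dof22 also fell, with changes of -3.43 and -2.40, and both fell in control leaves as well (-3.58 and -2.17). The UV-B receptor UVR8 (LOC101248324) went from 41 and 50.01 CPM to 2.92 and 3.07 CPM (-3.92 ± 0.35, adjusted p = 6.88e-05), beside -3.73 (adjusted p = 0.000158) in control leaves. Calls for cyclic dof factor 1 and UVR8 held with each library left out.

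**Figure D2:**
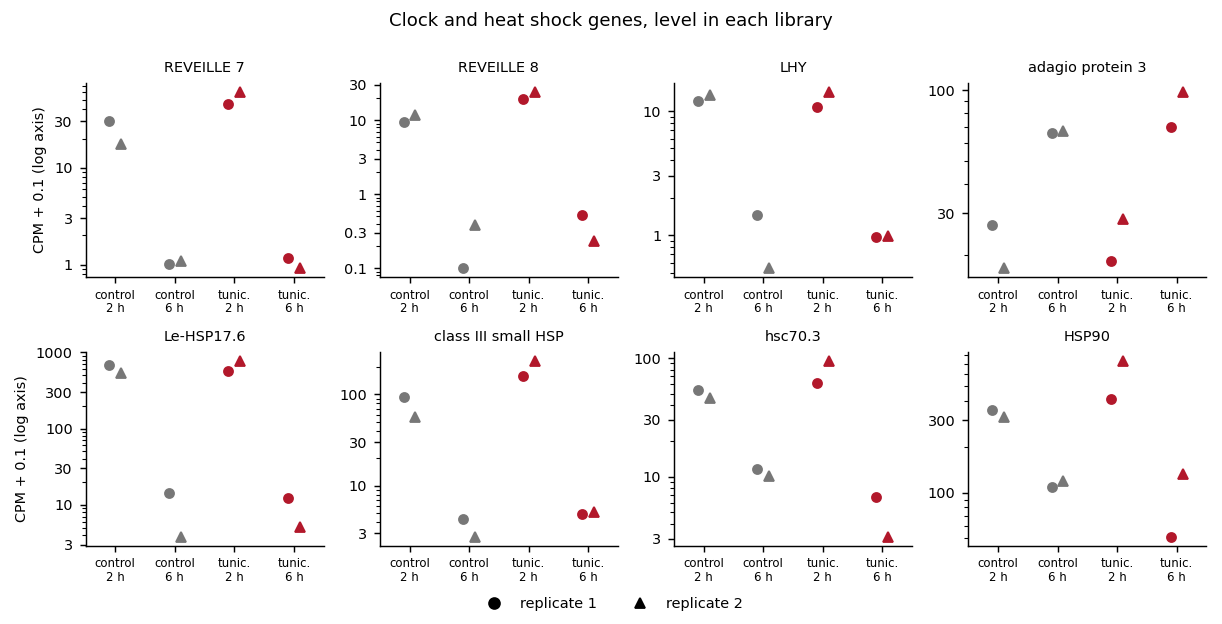
Level of 4 clock genes (top row) and 4 heat shock genes (bottom row) in each of the 8 libraries, as CPM + 0.1 on a log axis, with control libraries in grey and tunicamycin libraries in red. All but adagio protein 3 are lower at 6 h than at 2 h in both arms, without overlap.

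Small heat shock proteins were the second list with many calls. Of 25 measured genes, 12 fell in tunicamycin leaves and 10 fell in control leaves, with medians of -2.80 and -2.53. Of all genes, 0.671% were called lower in tunicamycin leaves and 0.301% in control leaves. No member was called higher in either arm, although 5 lay above zero in tunicamycin leaves. Le-HSP17.6 (LOC544282), a cytosolic class II small heat shock protein, stood at 560 and 780 CPM at 2 h and at 12.3 and 4.98 CPM at 6 h in tunicamycin leaves. Control levels were 689 and 530 CPM at 2 h and 14 and 3.71 CPM at 6 h. The arms covered nearly the same range at each time. The changes were -6.26 ± 0.71 (adjusted p = 0.000888) and -6.13 ± 0.71 (adjusted p = 0.00149), and their difference was -0.13 ± 0.80 (unadjusted p = 0.874).

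The class III gene LOC101248279 went from 161 and 235 CPM to 4.85 and 5.12 CPM in tunicamycin leaves (-5.31 ± 0.45, adjusted p = 4.67e-05) and from 93.6 and 56.1 CPM to 4.28 and 2.66 CPM in control leaves (-4.45, adjusted p = 0.00016). Calls spanned the compartments that these proteins serve. The class I genes LOC101268307 (-3.72, control -3.11), LOC101268020 (-4.11, control -3.54), Hsp20.0 (-3.55, control -2.91) and HSP17.8 (-2.80, control -3.12) fell. The class II gene HSP17.4 (-4.44, control -4.34) and the class IV genes LOC101256272 (-3.84, control -4.90) and LOC101254946 (-3.42, control -4.23) fell too. So did the mitochondrial genes MTSHP (-3.03, control -2.53) and LOC101261304 (-4.80, control -2.23) and the peroxisomal gene LOC101268271 (-2.37, control -1.08). All of these but LOC101261304 and LOC101268271 were called in control leaves as well. The control call of HSP17.4 ended without either control 2 h or either tunicamycin 2 h library (highest adjusted p = 0.119), and those of LOC101268307 and LOC101268020 when control 2 h replicate 1 was dropped (adjusted p = 0.0512 and 0.0587). LOC101261304 went from 34.2 and 11.4 CPM to 1.09 and 0.41 CPM in tunicamycin leaves, while its control levels were 1.22 and 4.27 CPM at 2 h and 0.201 and 0.94 CPM at 6 h (-2.23, adjusted p = 0.761). Dropping tunicamycin 2 h replicate 1 (adjusted p = 0.19) or either tunicamycin 6 h library ended its call. The ER-resident member er-sHSP had 8.61 and 3.86 CPM at 2 h and 0.255 and 0.41 CPM at 6 h, and missed the threshold (-4.35, adjusted p = 0.061), beside 2.44 and 2.41 CPM and then 0 and 0.506 CPM in control leaves.

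Without tunicamycin 2 h replicate 1 or tunicamycin 6 h replicate 1 the list count was 7 in place of 12, and for the other 6 libraries it was 9 to 14. Without control 2 h replicate 1 the control count was 4 in place of 10. For HSP17.4 the adjusted p was 0.059 when tunicamycin 2 h replicate 1 was dropped. The list takes in an activator of the HSP90 ATPase (LOC101256232, -0.65, not called) and leaves out HSP17-6 (-3.87, control -3.83) and the chloroplast protein HSP21 (-3.25, control -3.22, not called there), which also fell and whose descriptions did not match. Class I genes are similar in sequence, so reads may have been shared among them.

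Of 44 measured genes for HSP70, HSP90, HSP101 and heat stress factors, 8 fell in tunicamycin leaves and 2 in control leaves. The list median was -0.27 and -0.12. The 8 made up 18.2% of the list, against 0.671% of all genes called lower in tunicamycin leaves. In control leaves 0.301% of all genes were called lower. The cytosolic HSP70 gene hsc70.3 stood at 61.1 and 95.2 CPM at 2 h and at 6.57 and 3 CPM at 6 h. Control levels were 53.7 and 45.5 CPM at 2 h and 11.4 and 9.97 CPM at 6 h. Both arms fell without overlap, with changes of -3.98 ± 0.42 (adjusted p = 0.00038) and -2.22 ± 0.39 (adjusted p = 0.0227), the control call ending without either control 2 h library or control 6 h replicate 2 (highest adjusted p = 0.233). Their difference was -1.77 ± 0.53 (unadjusted p = 0.00476, adjusted p = 1).

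The other members that fell were the HSP70 genes LOC101255240 (-3.65, control -1.995), LOC101255185 (-3.67, control -3.55) and LOC101255164 (-2.83, control -1.28), HSP90 (-2.65, control -1.55) and the HSP90 gene LOC101264183 (-1.99, control -1.31). The disaggregases ClpB1 (LOC101254583, -1.96, control -1.50) and mitochondrial ClpB4 (LOC101248395, -1.61, control -1.47) fell too, and of these 7 genes LOC101255185 was called in control leaves, a call that ended when any 1 of the control libraries was dropped (highest adjusted p = 0.129). HSP90, a chaperone that matures kinases and receptors, went from 414 and 741 CPM to 51.1 and 133 CPM in tunicamycin leaves and from 351 and 316 CPM to 109 and 119 CPM in control leaves. Its call (adjusted p = 0.0248) ended without either control 2 h library, either tunicamycin 2 h library or tunicamycin 6 h replicate 1 (highest adjusted p = 0.16). The list count of 8 was 3 without tunicamycin 2 h replicate 2 or tunicamycin 6 h replicate 1, 4 without control 2 h replicate 2, and 5 without control 2 h replicate 1, tunicamycin 2 h replicate 1 or tunicamycin 6 h replicate 2.

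ER folding genes, the textbook targets of tunicamycin, gave no call between 2 h and 6 h with all 8 libraries in edgeR. Since only 0.765% of all genes were called, nothing is read from the absence of calls in lists this short. None of 14 ER chaperones and co-chaperones passed, with a median of 0.04 in tunicamycin and -0.39 in control leaves, and the 4 with non-overlapping lower libraries and 3 with non-overlapping higher libraries compare with 20.3% and 21.8% of all genes. BiP/grp78, the main HSP70 of the ER lumen, stood at 34.3 and 36.7 CPM at 2 h and at 59.2 and 48.8 CPM at 6 h in tunicamycin leaves. Control levels were 59.6 and 58 CPM at 2 h and 66.2 and 24.8 CPM at 6 h. The 6 h tunicamycin libraries were above the 2 h ones, but the change of 0.61 ± 0.40 did not pass (adjusted p = 0.659). Endoplasmin (LOC101265819), the HSP90 of the ER, had a change of -0.12 (adjusted p = 0.96; control -0.40), and calreticulin (LOC101246093), a lectin chaperone of glycoproteins, one of 0.19 (adjusted p = 0.919; control -0.26). P58IPK (LOC543872), a J-domain partner of BiP, had 8.28 and 13.3 CPM at 2 h and 17.2 and 13.7 CPM at 6 h (0.54, adjusted p = 0.689; control 0.33).

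Among 16 disulfide isomerases and oxidoreductins none passed and the median was 0.03. The list holds genes described as chloroplast proteins beside those of the ER. The protein disulfide-isomerase gene LOC101262222 went from 25.7 and 31 CPM to 61.2 and 73.6 CPM in tunicamycin leaves and from 43.9 and 47 CPM to 78.9 and 45.1 CPM in control leaves. The tunicamycin libraries did not overlap, and the change of 1.25 ± 0.34 did not pass (adjusted p = 0.147). It passed in 5 of 19 alternatives, among them DESeq2 (adjusted p = 0.0418). In LOC101244079, another disulfide isomerase, 1 library stood apart: its levels were 0.879 and 0.322 CPM at 2 h and 16.2 and 0.956 CPM at 6 h (3.65, adjusted p = 0.172), with control levels of 0.403 to 1.22 CPM. It passed in 4 of 17 alternatives, among them DESeq2 (adjusted p = 0.00729). Isomerase-like 5-4 (LOC101254614) had a change of 0.98 (adjusted p = 0.238; control 0.11).

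The remaining ER lists also gave no call in that fit, beside 0.765% of all genes called, and nothing is read from this. The medians in tunicamycin leaves were -0.16 over 28 genes of ER-associated degradation, -0.10 over 19 regulators of the unfolded protein response, -0.08 over 32 genes of N-glycosylation and dolichol synthesis, and -0.17 over 66 genes of the translocon and vesicle coats, beside -0.00 over all genes. Lowest in p among the degradation genes was LOC101251912, a UBX-domain protein of the kind that docks on CDC48, with 29.4 and 18.7 CPM at 2 h and 8.57 and 8.40 CPM at 6 h (-1.51, adjusted p = 0.0933; control -0.15). Bax inhibitor BI-1, which protects plant cells from ER stress-induced death, had 181 and 294 CPM at 2 h and 75.1 and 97.6 CPM at 6 h (-1.46, adjusted p = 0.171; control -0.998). Neither passed, although the libraries did not overlap, and DESeq2 called both (adjusted p = 0.00989 and 0.0134). LOC101252001, a subunit of the oligosaccharyltransferase that transfers the glycan, had a change of 0.68 (adjusted p = 0.479; control -0.15).

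**Figure D3:**
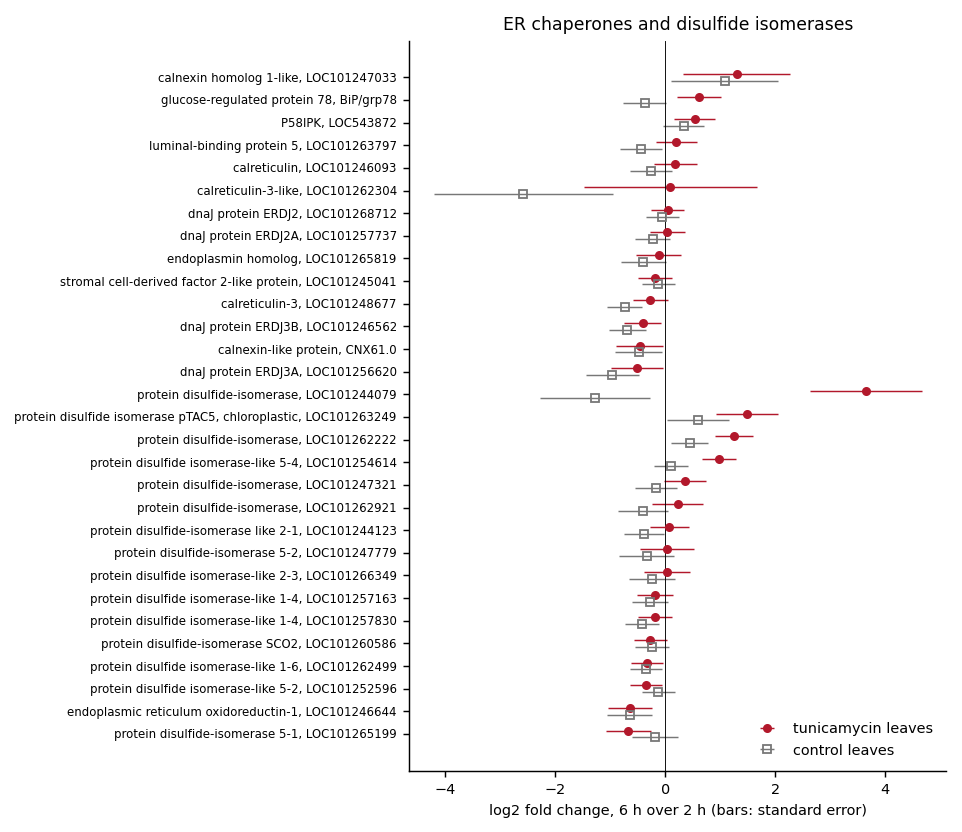
Log2 fold change from 2 h to 6 h of the 14 ER chaperones (top) and 16 disulfide isomerases and oxidoreductins (bottom), with red circles for tunicamycin leaves, grey squares for control leaves and bars for 1 SE. No gene passed the test in either arm, and LOC101244079 lies farthest out at 3.65.

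Photosynthesis genes gave 4 calls among 60, all lower, with a list median of -0.49 (-0.69 between the replicate 1 and -0.27 between the replicate 2 libraries) and -0.32 in control leaves. The calls were 6.67% of the list, against 0.671% of all genes called lower. Rubisco activase 1 (LOC101250725), which frees Rubisco of inhibitory sugars, went from 104 and 175 CPM to 6.02 and 14.9 CPM in tunicamycin leaves and from 170 and 83.5 CPM to 4.48 and 12.5 CPM in control leaves. It fell in both arms (-3.76 ± 0.61, adjusted p = 0.0178, and -3.87, adjusted p = 0.0199). The tunicamycin call ended without either tunicamycin 2 h library or tunicamycin 6 h replicate 1 (highest adjusted p = 0.0881), and the control call without control 2 h replicate 1 (adjusted p = 0.158). The light-harvesting genes chlorophyll a-b binding protein 1C (LOC101265886, -4.14, control -2.62), Cab-1D (-3.24, control -2.36) and CAB5 (-2.73, control -1.99) also fell, none of them called in control leaves. LOC101265886 had 181 and 498 CPM at 2 h and 7.51 and 31.3 CPM at 6 h, and Cab-1D, a close relative with which it may share reads, had 141 and 302 CPM and then 12 and 35.4 CPM. The list count of 4 was 0 without tunicamycin 2 h replicate 2, 1 without control 2 h replicate 2 or tunicamycin 6 h replicate 1, 2 without control 2 h replicate 1 or tunicamycin 2 h replicate 1, and 6 without tunicamycin 6 h replicate 2.

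ELIP, an early light-induced protein that binds free chlorophyll, had 17.2 and 13.5 CPM at 2 h and 0.588 and 0.137 CPM at 6 h in tunicamycin leaves, beside 15.9 and 5.45 CPM and then 0.503 and 0.174 CPM in control leaves. It fell by 5.14 and 5.18 on the log2 scale (adjusted p = 0.00374 and 0.00726), and the tunicamycin call was lost when tunicamycin 2 h replicate 1 was dropped (adjusted p = 0.055). The control call was lost when control 2 h replicate 1 or control 6 h replicate 2 was dropped (highest adjusted p = 0.069). ELIP was the call among 14 early light-induced and photoprotection genes (7.14%, against 0.671% of all genes called lower). Among 51 light signalling genes, CONSTANS-LIKE 4 (LOC101265452, -3.05, control -2.22) and B-box protein 20 (LOC101247504, -1.66, control -0.86) fell (3.92%). CONSTANS-LIKE 4 missed the threshold when tunicamycin 2 h replicate 1 or either 6 h tunicamycin library was dropped (highest adjusted p = 0.159), and B-box protein 20 when any but a control 6 h library was (highest adjusted p = 0.188).

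Several enzymes and transporters were among the largest called falls. The pectinesterase gene LOC101245007, which acts on cell wall pectin, had 14.5 and 22.2 CPM at 2 h and 0.509 and 0.41 CPM at 6 h in tunicamycin leaves (-5.25 ± 0.73, adjusted p = 0.00447). Its control levels were 7.73 and 12.9 CPM at 2 h and 3.22 and 0.60 CPM at 6 h (-2.56, adjusted p = 0.284). Without tunicamycin 6 h replicate 1 it no longer passed (adjusted p = 0.0714). ACO5, an ACC oxidase that makes ethylene, went from 212 and 143 CPM to 16.9 and 3.55 CPM (-4.09 ± 0.61, adjusted p = 0.0079) and in control leaves from 161 and 122 CPM to 6.84 and 4.61 CPM (-4.63, adjusted p = 0.00686). It was the call among 40 ethylene genes (2.5%, against 0.671% of all genes), and dropping tunicamycin 2 h replicate 1 ended it (adjusted p = 0.0777). The control call ended without control 2 h replicate 1 or either control 6 h library (highest adjusted p = 0.182). LOC101266250, a late embryogenesis abundant protein 2-like gene, fell in tunicamycin (-4.44, adjusted p = 0.0289) and in control leaves (-4.66, adjusted p = 0.048). The tunicamycin call ended without 4 of the 8 libraries, tunicamycin 2 h replicate 1, both tunicamycin 6 h libraries and control 2 h replicate 2 (highest adjusted p = 0.312), and the control call without 5, both control 2 h, both tunicamycin 2 h and control 6 h replicate 2 (highest adjusted p = 0.326).

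Cytosolic ascorbate peroxidase 2 (LOC101258987), which removes hydrogen peroxide, went from 52.2 and 40.4 CPM to 5.75 and 4.37 CPM in tunicamycin leaves and from 28.3 and 36.7 CPM to 3.67 and 4.80 CPM in control leaves. It fell in both arms (-3.18 ± 0.35, adjusted p = 0.000512, and -2.93, adjusted p = 0.00148), and the call held with each library left out. It was 1 of 4 antioxidant genes that fell among 127, with catalase 3 (LOC101259333, -1.86, control -0.37) and the thioredoxin genes LOC101246521 (-2.48, control -0.81) and LOC101248480 (-1.96, control -1.19). The sugar transporter gene LOC101255592 (-4.92) and the chloroplast beta-amylase gene LOC101259175 (-2.90), which breaks down leaf starch, were the 2 calls among 110 sugar genes. Beta-amylase went from 22.5 and 17 CPM to 2.48 and 2.87 CPM and also fell in control leaves (-3.14, adjusted p = 0.0226), as did the transporter (-4.09, adjusted p = 0.048). The control call of beta-amylase (LOC101259175) ended without control 2 h replicate 1 or either tunicamycin 2 h library (highest adjusted p = 0.295), and that of LOC101255592 without any library but the tunicamycin 6 h ones (highest adjusted p = 0.351). Among 117 cuticle genes 4 fell, among them CER6 (-2.27, control -1.76), an elongase of wax precursors, and the GDSL lipase genes LOC101260894 (-2.37, control -0.92) and LOC101266652 (-3.49, control -3.58, the control call of this list). That control call of LOC101266652 ended without 5 libraries, both at 2 h in each arm and control 6 h replicate 2 (highest adjusted p = 0.283). The share that fell was 3.15% of antioxidant, 1.82% of sugar and 3.42% of cuticle genes, against 0.671% of all genes. The counts hung on single libraries: with 1 library dropped the antioxidant count ran from 1 to 8, the cuticle count from 0 to 7 and the sugar count from 0 to 6. The lowest counts came without tunicamycin 2 h replicate 1 in all 3 lists, without either 6 h tunicamycin library for antioxidant genes and without tunicamycin 2 h replicate 2 for sugar genes, and the highest without control 6 h replicate 1.

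Among hormone genes the share called lower was 3.03% for the gibberellin list and 0.763% for the auxin list, against 0.671% of all genes. The auxin share is thus near that of all genes. The gibberellin list gave 1 call among 33: GA2ox3, a gibberellin-inactivating oxidase, had 6.09 and 4.82 CPM at 2 h and 1.30 and 0.956 CPM at 6 h in tunicamycin leaves, against 21 and 28 CPM and then 11 and 18.6 CPM in control leaves. It fell by 2.24 on the log2 scale (adjusted p = 0.0239) beside a control change of -0.73 (adjusted p = 1), and the call ended without control 2 h replicate 2, tunicamycin 2 h replicate 1 or either tunicamycin 6 h library (highest adjusted p = 0.195). GA20ox1, a gibberellin-making oxidase, had 0.22 and 0 CPM at 2 h and 4.21 and 4.57 CPM at 6 h and did not pass (adjusted p = 0.105), beside 0 and 0.57 CPM and then 2.42 and 0.363 CPM in control leaves. The auxin list gave 1 call among 131, the SAUR gene LOC101055583, with 32.3 and 13 CPM at 2 h and 4.75 and 4.23 CPM at 6 h (-2.35, adjusted p = 0.021; control -0.42). Dropping tunicamycin 2 h replicate 1 (adjusted p = 0.243) or either tunicamycin 6 h library ended that call.

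Abscisic acid and dehydration genes had a median of -0.46 over 81 genes, and ER5 (-1.98, adjusted p = 0.0457; control -0.39) and the desiccation-related gene LOC101268052 (-1.84, adjusted p = 0.0477; control -0.46) fell. They made up 2.47% of the list, against 0.671% of all genes called lower. ER5, a late embryogenesis-like protein induced by ethylene, had 37.5 and 34.2 CPM at 2 h and 10.05 and 8.06 CPM at 6 h, while control levels were 81, 97.9, 38.1 and 98.4 CPM and overlapped between times. Both calls ended without any of 6 libraries, the 4 tunicamycin and the 2 control 2 h libraries (highest adjusted p = 0.23 and 0.343). Of 43 jasmonate genes none passed, beside 0.765% of all genes called. The list median was 0.31 in tunicamycin and -0.11 in control leaves. In tunicamycin leaves it was 0.30 between the replicate 1 and 0.00 between the replicate 2 libraries. The jasmonate-conjugating enzyme JAR1 (LOC101251682) had 15.9 and 18 CPM at 2 h and 35.5 and 43.6 CPM at 6 h (1.22, adjusted p = 0.105; control 0.46). The repressor gene TIFY 5A-like (LOC101252907) had 4 and 2.25 CPM and then 0.392 and 1.64 CPM (-1.94, adjusted p = 0.202; control -0.68).

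Of 90 AP2/ERF factors 2 fell (2.22%, against 0.671% of all genes called lower). LOC101263899, ABR1-like and named for abscisic acid repression in Arabidopsis, went from 16.1 and 4.82 CPM to 0.989 and 0.41 CPM (-3.80 ± 0.57, adjusted p = 0.00554), beside 25.2 and 19.6 CPM and then 5.38 and 4.89 CPM in control leaves. With tunicamycin 2 h replicate 1 dropped the adjusted p was 0.125. LOC101249870, ERF13-like, had 26 and 2 counts in the 2 h tunicamycin libraries and 0 in both at 6 h. Over both libraries its 2 h level was 21.1 times a floor of 3 counts set for the 6 h group, which is not a lower limit of the fold. Its control levels were 2.03 and 4.35 CPM at 2 h and 1.51 and 3.13 CPM at 6 h. Its adjusted p of 0.0427 rose above the threshold without any of 6 libraries, all but the control 6 h ones (highest adjusted p = 0.338).

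Of 56 WRKY factors, 42 NAC factors and 63 MYB factors none passed, with medians of -0.33, -0.39 and -0.17. As 0.765% of all genes were called, nothing is read from lists of this length without a call. Defence-related WRKY3 had 178 and 136 CPM at 2 h and 31 and 34.3 CPM at 6 h in tunicamycin leaves and missed the threshold narrowly (-2.27, adjusted p = 0.0523). Its control levels were 63.3 and 35.2 CPM and then 8.85 and 28 CPM. Among the NAC factors 35 of 42 lay below zero, against 10156 of 20272 genes. Their medians were close between depths, -0.36 between the replicate 1 and -0.52 between the replicate 2 libraries, and -0.01 in control leaves.

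Of the genes that rose, aspartyl protease AED3 (LOC101248557), which in Arabidopsis is secreted in systemic immunity, had the largest change. It stood at 8.04 and 13.8 CPM at 2 h and at 150 and 185 CPM at 6 h in tunicamycin leaves (3.97 ± 0.63, adjusted p = 0.0159). Control levels were 64.3 and 58.3 CPM at 2 h and 162 and 33.7 CPM at 6 h (0.68, adjusted p = 1), so that the control libraries overlapped. Its call ended without either tunicamycin 2 h library or tunicamycin 6 h replicate 2 (highest adjusted p = 0.206). The POLLENLESS 3-LIKE 2 gene (LOC101265401) went from 1.32 and 0.643 CPM to 5.27 and 25.5 CPM (3.81, adjusted p = 0.0361; control 0.60), with 1 library well above the rest. Cysteine proteinase Cyp-3 went from 5.03 and 1.93 CPM to 41.7 and 18.3 CPM (3 ± 0.53, adjusted p = 0.0211), beside 5.29 and 12.4 CPM and then 27.3 and 26.3 CPM in control leaves.

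An elongation factor gene and a ribosome maturation gene were among those that rose, and were put together after their values were seen. None of 213 cytosolic ribosomal protein genes was called. Their median was -0.22 between the replicate 1 and 0.68 between the replicate 2 libraries. The elongation factor 1-alpha gene LOC101264700, which brings aminoacyl-tRNA to the ribosome, went from 83 and 122 CPM to 565 and 889 CPM in tunicamycin leaves (2.83, adjusted p = 0.0289) and from 122.9 and 357 CPM to 1239 and 931 CPM in control leaves (2.17, adjusted p = 0.207). Groups were apart in both arms. The REI1 homolog (LOC101267254), a factor that matures the large ribosomal subunit in the cytoplasm, had 14.7 and 9.33 CPM at 2 h and 64.7 and 58 CPM at 6 h (2.33 ± 0.35, adjusted p = 0.00608), beside a control change of 1.00. It had the smallest adjusted p of the 19 and tunicamycin 2 h replicate 2 was the only library whose absence ended its call (adjusted p = 0.0714). The plastid ATP/ADP transporter gene LOC101254581 changed by 1.75 (adjusted p = 0.033; control 0.70).

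Regulators also rose. The factor bHLH61 (LOC101268000) went from 2.55 and 1.93 CPM to 14.6 and 15.7 CPM in tunicamycin leaves (2.71 ± 0.46, adjusted p = 0.015), beside 4.07 and 3.21 CPM and then 8.35 and 4.30 CPM in control leaves. It was the call among 78 bHLH factors, beside 0.0937% of all genes called higher. The growth-regulating factor 1-like gene LOC101252681, of a family that promotes leaf cell proliferation, had 9.58 and 11.6 CPM at 2 h and 40.2 and 50.1 CPM at 6 h (2.10, adjusted p = 0.0382). Its control levels did not move together, at 41.9 and 22.5 CPM and then 45.8 and 20.1 CPM. The 6 h tunicamycin level was thus near the control level, and the 2 h level below it. The zinc finger gene CO3 (LOC101255179) had 8.26 and 8.36 CPM and then 24.2 and 36.6 CPM (1.87, adjusted p = 0.0259), against a control range of 10.7 to 17.1 CPM.

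The remaining named genes that rose were thionin-like protein 2 (LOC101246639, 2.66, control 0.19), an antimicrobial peptide type, the dioxygenase ODD (2.58, control 1.35), the hydroxyisoflavanone dehydratase-like gene LOC101249123 (2.50, control -0.21) and peroxidase 44-like (LOC101248236, 2.22, control 0.82). Peroxidase 44-like had 10.1 and 7.08 CPM at 2 h and 35.1 and 46.3 CPM at 6 h, with control levels between 6.17 and 12.8 CPM. Each of the 19 calls ended without at least 1 library. Without tunicamycin 2 h replicate 2 none of the 19 passed (highest adjusted p = 0.273), without tunicamycin 2 h replicate 1 there was 1, and without control 6 h replicate 1 or replicate 2 all 19 passed. Without the other libraries between 5 and 11 passed.

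The genes with the strongest evidence for a different time course in the 2 arms were taken by their unadjusted p, and all had an adjusted p of 1 for the difference. Among those lower at 6 h in tunicamycin leaves was LOC101264635, described as 11-beta-hydroxysteroid dehydrogenase 1B, the kind of enzyme called steroleosin on seed oil bodies. It had 7.43 and 6.27 CPM at 2 h and 0.235 and 0.546 CPM at 6 h, while control levels stayed between 2.82 and 6.82 CPM. The changes were -4.33 ± 0.64 (adjusted p = 0.00507) and -0.53 (adjusted p = 1), a difference of -3.80 ± 0.81 (unadjusted p = 0.000316). The nudix hydrolase 18 gene LOC101248702 had 9.07 and 5.47 CPM and then 0.568 and 0.273 CPM, with control levels of 1.01 to 2.98 CPM (difference -3.70 ± 0.91, unadjusted p = 0.00107).

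Malate synthase (LOC101267103), a glyoxylate cycle enzyme that turns acetyl-CoA from fatty acids into malate, stood at 111 and 58.4 CPM at 2 h and at 13.6 and 7.51 CPM at 6 h in tunicamycin leaves. Its control levels were 20.8 and 31.2 CPM at 2 h and 28.3 and 12.4 CPM at 6 h. The 2 h tunicamycin libraries were above all others. It fell in tunicamycin leaves (-2.99 ± 0.48, adjusted p = 0.00959; control -0.38, adjusted p = 1; difference -2.62 ± 0.64, unadjusted p = 0.0011), and dropping tunicamycin 2 h replicate 1 (adjusted p = 0.125) or tunicamycin 6 h replicate 2 ended the call. Catalase 3 and acyl-CoA oxidase 2, called peroxisomal genes picked out after their values were seen, also had both 2 h tunicamycin libraries above all others. No list of peroxisomal genes was made, so nothing is read from them about peroxisomal genes as a set. Catalase 3 (LOC101259333), which destroys the hydrogen peroxide of peroxisomes, had 96.9 and 80.6 CPM at 2 h and 24.1 and 24.7 CPM at 6 h against control levels of 32.1 to 51.6 CPM (-1.86, adjusted p = 0.0156). Acyl-CoA oxidase 2 (LOC101265227), which opens peroxisomal fatty acid oxidation, had 126 and 102 CPM and then 38.1 and 22.9 CPM against control levels of 30.9 to 60.6 CPM (-1.90, adjusted p = 0.0457). CTP synthase (LOC101257698), of nucleotide synthesis, had 91.5 and 50.8 CPM and then 16.4 and 14.9 CPM against 18.5 to 32.2 CPM (-2.19, adjusted p = 0.018).

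Calls for LOC101264635 ended without tunicamycin 2 h replicate 1 or 6 h replicate 1 (highest adjusted p = 0.0671), and those for LOC101248702, LOC101257698 and catalase 3 (LOC101259333) without tunicamycin 2 h replicate 1 or either 6 h library (highest adjusted p = 0.167, 0.182 and 0.114). The call for LOC101265227 ended without 6 of the 8 libraries, all but the control 6 h ones (highest adjusted p = 0.332). Among the 155 called genes, 16 that fell and 6 that rose had a control change within 0.5 of zero on the log2 scale. An unadjusted p under 0.05 for the difference was found for 41 of the 136 (30.1%) and 15 of the 19 (78.9%), against 580 of all 20272 genes (2.86%). The genes were chosen on the tunicamycin change, which is a term of the difference, so nothing is read from these shares.

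Of the other genes with a small unadjusted p for the difference, LOB40 and SAUR78 fell in control leaves, and ATHB-15 and a bHLH87-like gene passed the test in neither arm. LOB domain protein 40 (LOC101257056) had 52.8 and 48.7 CPM at 2 h and 39.4 and 62.1 CPM at 6 h in tunicamycin leaves, where the times overlapped. The control levels fell from 92.6 and 106 CPM at 2 h to 26.3 and 14.6 CPM at 6 h (-2.29 ± 0.37, adjusted p = 0.0161). SAUR78 (LOC101268293), an auxin-responsive gene, kept 32.5 and 15.6 CPM at 6 h in tunicamycin leaves after 43.1 and 18.3 CPM at 2 h, whereas in control leaves it fell from 30.3 and 20.7 CPM to 4.33 and 2.55 CPM (-2.91, adjusted p = 0.0219). Both control calls ended without either control 2 h library or control 6 h replicate 2 (highest adjusted p = 0.159 and 0.233). The differences were 2.28 ± 0.51 (unadjusted p = 0.000502) and 2.54 ± 0.66 (unadjusted p = 0.00171). The class III homeobox gene ATHB-15 (LOC101251205), which patterns vasculature and leaf polarity, had 4.37 and 3.86 CPM at 2 h and 11.9 and 13.4 CPM at 6 h in tunicamycin leaves, without overlap (1.60, adjusted p = 0.0669). Control levels were 14.2 and 14.8 CPM and then 13.2 and 9.90 CPM. The bHLH87-like gene LOC101262125 had 2.46 and 3.86 CPM and then 16.7 and 10.9 CPM in tunicamycin leaves, and 4.88 and 2.28 CPM and then 2.52 and 1.26 CPM in control leaves (2.18 and -0.87, difference 3.05 ± 0.76, unadjusted p = 0.00119).

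**Figure D4:**
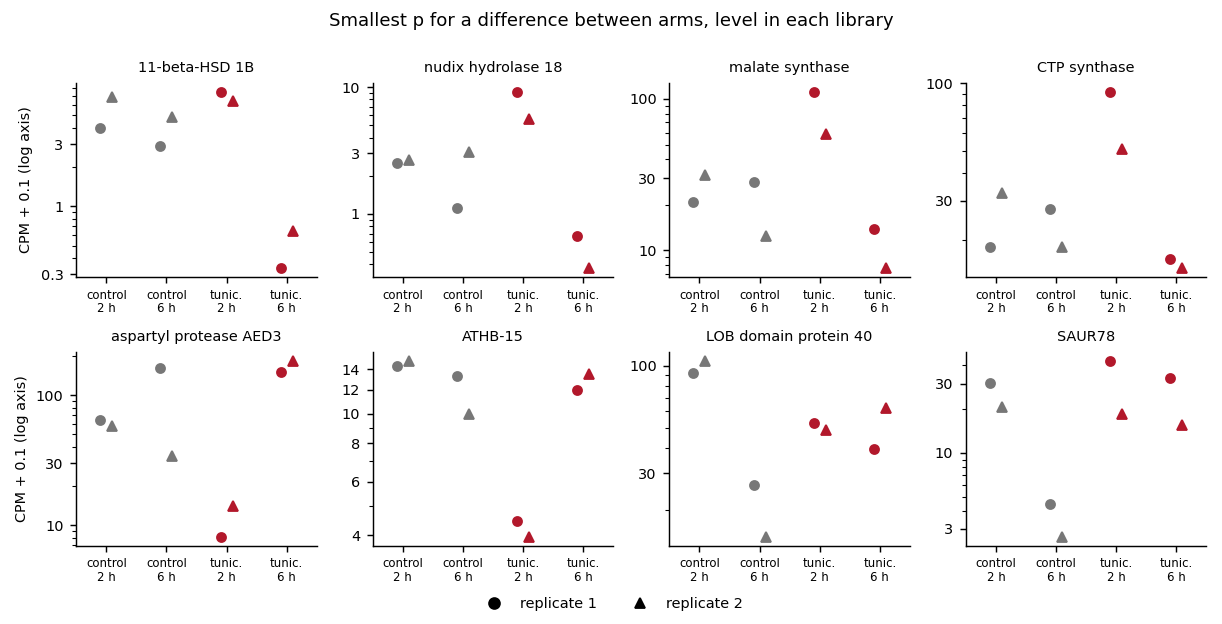
Level of 8 genes taken by their unadjusted p for a difference between arms in each of the 8 libraries, as CPM + 0.1 on a log axis, with control libraries in grey and tunicamycin libraries in red. In the top row the 2 h tunicamycin libraries are highest or near highest and the 6 h ones lowest, except that for malate synthase a 6 h control library lies between the 6 h tunicamycin ones, and in the last 2 panels the 6 h control libraries are lowest.

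Growth and housekeeping lists gave no calls, beside 0.765% of all genes called. Cytosolic ribosomal protein genes had a median of 0.24 over 213 genes, but -0.22 between the replicate 1 and 0.68 between the replicate 2 libraries, so its sign depended on the library. Cell cycle genes behaved likewise, with 0.11 over 152 genes, and -0.16 and 0.64 between the libraries of each number. Proteasome subunits had a median of 0.29 over 49 genes (0.09 and 0.31) and autophagy genes one of -0.41 over 27 genes (-0.39 and -0.42). In tunicamycin leaves 24 of 27 autophagy genes lay below zero, against 10156 of all 20272 genes. The control medians were -0.03 for ribosomal protein, 0.01 for cell cycle, 0.02 for proteasome and 0.04 for autophagy genes. None of these lists held a called gene. The linker histone gene H1 had 255 and 192 CPM at 2 h and 628 and 941 CPM at 6 h and missed the threshold (1.81, adjusted p = 0.0826; control 0.41). Markers of dividing cells summed to 79.7 and 76.4 CPM at 2 h and 60.7 and 90.6 CPM at 6 h in tunicamycin leaves. Control sums were 83 and 73.4 CPM and then 99.8 and 71.6 CPM, so the times overlapped in both arms. These sums leave out the calcyclin-binding protein gene LOC101267627, which is no cyclin but matched the list by name. That gene had 153 and 184 CPM at 2 h and 61.2 and 95.1 CPM at 6 h in tunicamycin leaves. Its control levels were 179 and 156 CPM and then 75.9 and 62.1 CPM. Epidermis markers summed to 270 and 192 CPM and then 161 and 115 CPM in tunicamycin leaves. In control leaves they summed to 172.7 and 184.8 CPM and then 139.5 and 111 CPM, also lower at 6 h without overlap. Of 12 dividing cell markers measured none was called, and 1 of 11 epidermis and 3 of 21 mesophyll markers were called lower. The part of cell makeup in the results was not tested.

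**Figure D5:**
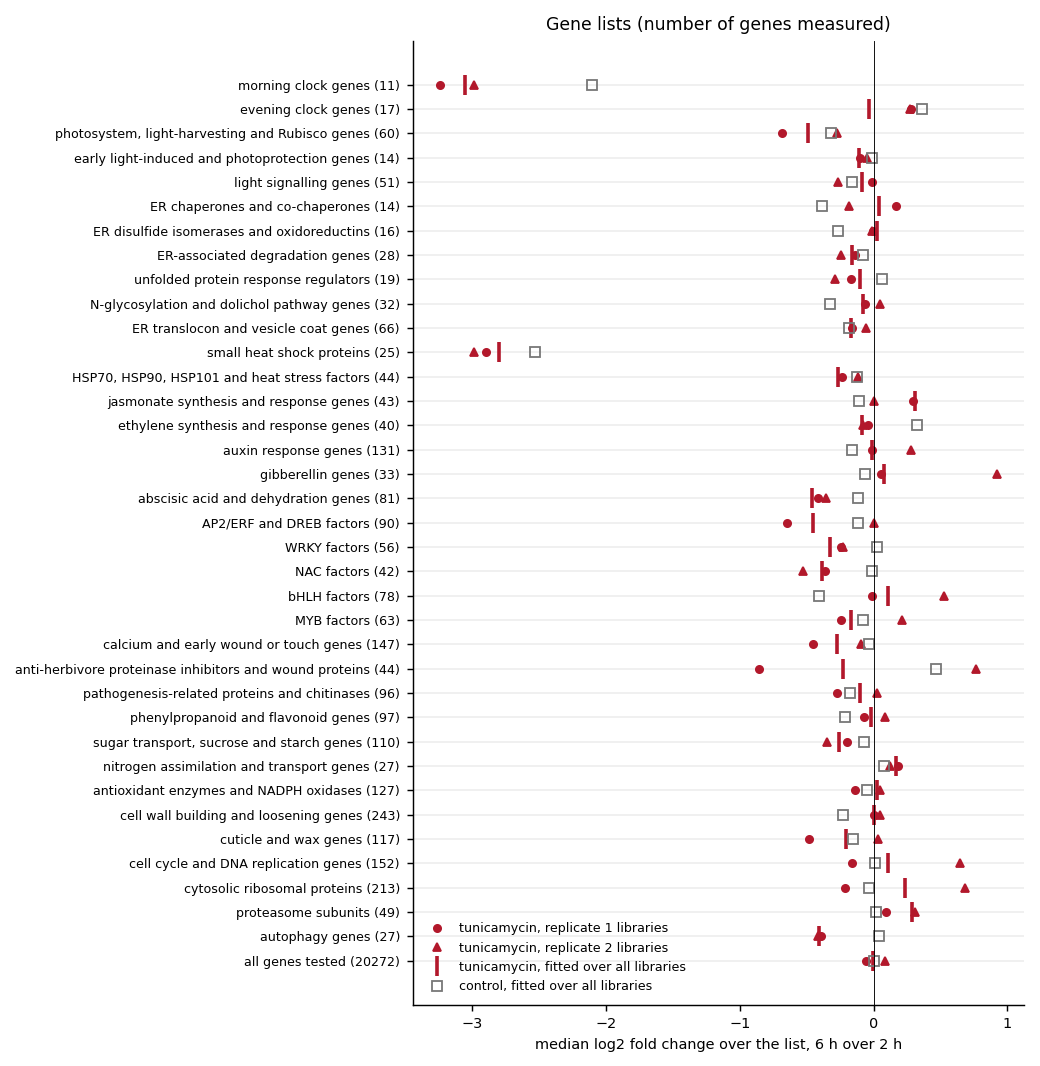
Median log2 fold change from 2 h to 6 h of the 36 gene lists and of all genes tested, with the number of genes measured in parentheses. Circles and triangles are tunicamycin leaves between the replicate 1 and between the replicate 2 libraries, bars the fitted tunicamycin values and squares the fitted control values. Morning clock genes (-3.06) and small heat shock proteins (-2.80) stand far from the other lists in tunicamycin leaves.

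None of 147 calcium and early wound genes, 44 anti-herbivore genes, 97 phenylpropanoid genes or 27 nitrogen genes passed, beside 0.765% of all genes called. Of pathogenesis-related genes 1.04% were called lower, against 0.671% of all genes. The anti-herbivore median was -0.86 between the replicate 1 libraries and 0.77 between the replicate 2 libraries. Of 96 pathogenesis-related genes, the defensin gene LOC101255877 fell, from 3.67 and 1.29 CPM to 0.0588 and 0 CPM (-5.73, adjusted p = 0.021; control -4.35, adjusted p = 0.0784), a call lost when tunicamycin 2 h replicate 1 or either 6 h library was dropped (highest adjusted p = 0.211). Of 243 cell wall genes 2 fell (0.823%, near the 0.671% of all genes), the pectinesterase above and pectinesterase inhibitor 6-like (LOC101247841, -2.80, control -0.87). The inhibitor call ended without control 2 h replicate 2 or any tunicamycin library (highest adjusted p = 0.216).

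In the authors' deposited table of this comparison, 567 of the same 20272 genes had a false discovery rate under 0.05 and were lower at 6 h (2.8%), and 281 were higher (1.39%), 848 in all (4.18%). Of the 136 genes called lower here, 135 were among the 567, and all 19 called higher were among the 281. The exception was the ERF13-like gene LOC101249870, with a false discovery rate of 0.129 there. For REVEILLE 7 (LOC101255972) the authors' deposited table gives a log2 fold change of -5.76.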

How the data were processed

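RNA libraries of tomato leaf, made with a directional kit per the labels' protocols, were deposited as raw read counts for 45845 RefSeq transcripts, 1 column for each of 8 libraries. Reads were trimmed with Trimmomatic 0.40, per the submitters' processing notes. The aligner, counting program, genome build, annotation and use of strand are not stated in the sources used here. The authors' deposited comparison table gives log2 fold changes and average log2 CPM, an F score, and p-values with false discovery rates, per the file headers. Gene names came from the deposited descriptions, and 457 damaged symbols were rebuilt from them. Of all genes, 90.9% had a symbol in a RefSeq gene table.

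The tests used R 4.3.3 with edgeR 4.0.16. Its filterByExpr (minimum count 10, minimum total 15) left 34483 transcripts, scaled by TMM. A robust quasi-likelihood fit covered the 8 libraries with 1 mean for each of the 4 groups (4 residual degrees of freedom, common biological coefficient of variation 0.353), and contrasts were tested two-sided with Benjamini-Hochberg adjustment over all transcripts. A gene was called at an adjusted p under 0.05 and counted by its transcript with the highest total. Reads shared between variants seem to be counted for each: the median ratio of the second to the first transcript of a gene was 0.961. Values between libraries of the same number use log2 CPM with a prior count of 2. With 2 libraries a group, the spread between libraries was pooled over the 4 groups and moderated toward that of other transcripts (median prior degrees of freedom 10.6). The p-values thus do not measure the spread within 1 group alone. The procedure was tested on simulated data.

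The text names the 14 called genes with a description that changed most, up and down (mean log2 CPM of at least 1, libraries not overlapping), the 5 with the smallest p for the difference in each direction, and, from 36 lists, called members or those among the 3 of smallest p, as well as a few textbook genes (endoplasmin, calreticulin, er-sHSP, the uncalled clock genes) and genes said to be picked out after their values were seen. The lists and the comparison were chosen with earlier results of these data known. Alternatives were another scaling, DESeq2 1.42.0, limma-voom 3.58.1, other filters, 1 transcript per gene in the fit, a replicate block, a depth term, thinned libraries, each library left out, and each arm alone. The replicate numbers were not taken to pair the samples. Promoter sequences were not analysed here.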

Additional observations from a re-analysis of the deposited data

Results flagged for a closer look

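In 4 of the genes named or called, both 6 h libraries lay beyond both 2 h libraries in opposite directions in the arms. The same held for 404 of the 20272 genes tested (1.99%). The tests of the difference gave an adjusted p of 1 for each. LOC101244079 (protein disulfide-isomerase) differed by 4.93 on the log2 scale between the arms (3.65 in tunicamycin and -1.27 in control leaves), with 1 tunicamycin 6 h library at 16.2 CPM and the other at 0.956 CPM. ATHB-15 (LOC101251205) differed by 1.94 (1.60 and -0.34). The uncharacterized gene LOC101254217 differed by 3.14 (2.46 and -0.68), from 1.34 and 1.29 CPM to 7.75 and 6.76 CPM in tunicamycin leaves and from 6.10 and 4.10 CPM to 2.52 and 3.64 CPM in control leaves. The patatin-like gene LOC101264485 differed by -2.95 (-0.56 and 2.39), with 14.2 and 9 CPM and then 7.99 and 7.92 CPM in tunicamycin leaves.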

How the results depend on the processing

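The 155 calls in tunicamycin leaves became 635 by DESeq2, 930 with no low-count filter and 258 with a depth term, and 39 to 458 with 1 library left out. Every one of the 155 was also called by DESeq2 and with no filter. The 62 calls in control leaves became 185 by DESeq2, 102 by limma-voom and 298 with no filter, and 11 to 185 with 1 library left out. For the difference between arms there were 0 calls, 79 with no filter and 0 to 33 with 1 library left out (33 when control 6 h replicate 1 was dropped, 1 when tunicamycin 2 h replicate 2 was). Other alternatives, apart from the replicate block in 1 arm below, moved these counts by less than 1.5 times. The causes were not tested. With a replicate block the tunicamycin count was 133 over 8 libraries (117 lower, 16 higher) and 592 in the 4 tunicamycin libraries alone (432 lower, 160 higher), which gave 211 without the block; control and difference counts with the block were 58 and 0. Deviations of same-numbered tunicamycin libraries had a correlation of 0.167, and with 2 numbers, which also mark depth, they share only a number. Under no alternative did a called gene change direction. The tunicamycin change reversed for 3 genes that were not called: LOC101257056 (0.0022 by limma-voom, 0.056 in thinned libraries, -0.36 to 0.28 with 1 library left out), LOC101268293 (-1.003 to 0.38 with 1 library left out) and TIFY 5A-like LOC101252609 (-7.30 to 3.68 with 1 library left out).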
